A study of Mus musculus with 6 samples.

Results

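The Rab genes encode small GTPases of vesicle traffic. They were taken as every gene on the array whose symbol is Rab followed by a number and at most a short suffix, which gave 59 genes with 132 probe sets, out of 18193 genes with a probe set of their own. Each gene is given by its brightest probe set by mean over 6 arrays, so levels chose the probe set and the measured differences did not. The choice was closest for Rab4a (mean scaled intensity 22.4 against 21.8 for its next probe set) and Rab27a (52.5 against 49.9). All 59 symbols are current in the RefSeq table.

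RNA was hybridised to 6 Affymetrix arrays, all of mouse macrophages. Wild-type macrophages were given medium (1 array) or lipopolysaccharide (LPS, from the outer membrane of bacteria; 1 array). From the Trib1 line, LPS-treated macrophages were measured from wild-type mice (2 arrays, wild type 1 and 2) and from Trib1-deficient mice (2 arrays, knockout 1 and 2), and no array of this line was given medium. Trib1 is a catalytically inactive kinase relative known for the turnover of C/EBP factors. No LPS dose, time, macrophage source, strain, age or sex stands in the labels. Whether arrays numbered 1 and 2 come from separate animals is not said, so p-values reflect the spread among these arrays, which may be technical.

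A Rab protein switches between a GTP-bound form, which sits on 1 kind of membrane and recruits effectors there, and a GDP-bound form, which a dissociation inhibitor keeps soluble. Exchange factors load GTP, GTPase-activating proteins end the cycle, and a prenyl anchor holds the protein on the membrane. In macrophages Rab proteins pass phagosomes and endosomes on to lysosomes, return receptors to the surface and deliver secreted proteins.

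Values are probe set intensities scaled to a common mean, and values under 29.9 were set to that floor before log2 was taken. On each array 48 to 50 of the 59 Rab probe sets lay above the floor, and 57.9% to 63.0% of all probe sets did. Macrophage markers were high on all arrays (summed intensity of 7 markers 67500 to 88000). Xist measured 1616 in medium and 980.5 after LPS and lay under the floor on the 4 Trib1-line arrays, while Eif2s3y, a Y-linked gene, was the reverse (under the floor, then 218.8 to 534.2). Line, sex and deposited scale therefore cannot be told apart in any comparison of a Trib1-line array with the medium array. Trib1 itself, on its brighter probe set, measured 383.5 in medium, 189.3 after LPS, 17.9 and 17.5 for wild type 1 and 2 and 88.1 and 20.9 on the knockout arrays. Where this probe set lies relative to the deletion is not given, so it checks no label, and Trib1-deficient samples are called knockout-labelled here.

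The comparison of LPS with medium asks which Rab genes respond to the bacterial stimulus. Rab7b stood apart from the rest of the family. Rab12 and Rab8b were at least 2-fold higher than in medium on all 3 wild-type LPS arrays, and Rab7b, Rab31 and Rab19 at least 2-fold lower on all 3. On the LPS array, 42 of 51 measured members lay within 2-fold of medium, among them Rab1a, Rab2a, Rab7, Rab11a and Rab14. Some dimmer probe sets of these genes passed 2-fold. Rab2a 1449676_at was 2.28-fold lower on the LPS array. Rab14 1419244_a_at, 1441992_at and 1439687_at had log2 ratios of -1.38, -1.05 and -1.18 on wild type 2.

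By the rule of a 4-fold ratio with the higher value above the floor, 0 of 51 measured Rab genes were higher after LPS and 1 was lower. Among all genes 1.21% were higher and 0.672% lower by the same rule. At 2-fold, 3 were higher and 6 lower, against 5.44% and 6.72% of all genes. The Rab share was 5.88% higher and 11.8% lower. With 1 array per condition there is no test of these counts. Over all 59 Rab genes the median log2 ratio was -0.01, where genes under the floor on both arrays count as 0. Over the 42 above the floor on all 6 arrays it was -0.10. The median over all genes, floored ones included in the same way, was 0, and over all genes above the floor on all 6 arrays -0.12. The median size of the log2 ratio over those 42 was 0.36, and it was 0.36 over all genes too. Between wild type 1 and wild type 2, which had the same labels, the median size for the same 42 genes was 0.28. Between knockout 1 and knockout 2 it was 0.31. Between the LPS array and wild type 1 and 2, all given LPS, it was 0.35 and 0.25. Over all genes these pairs gave, in that order, 0.31, 0.30, 0.34 and 0.38.

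**Figure D1:**
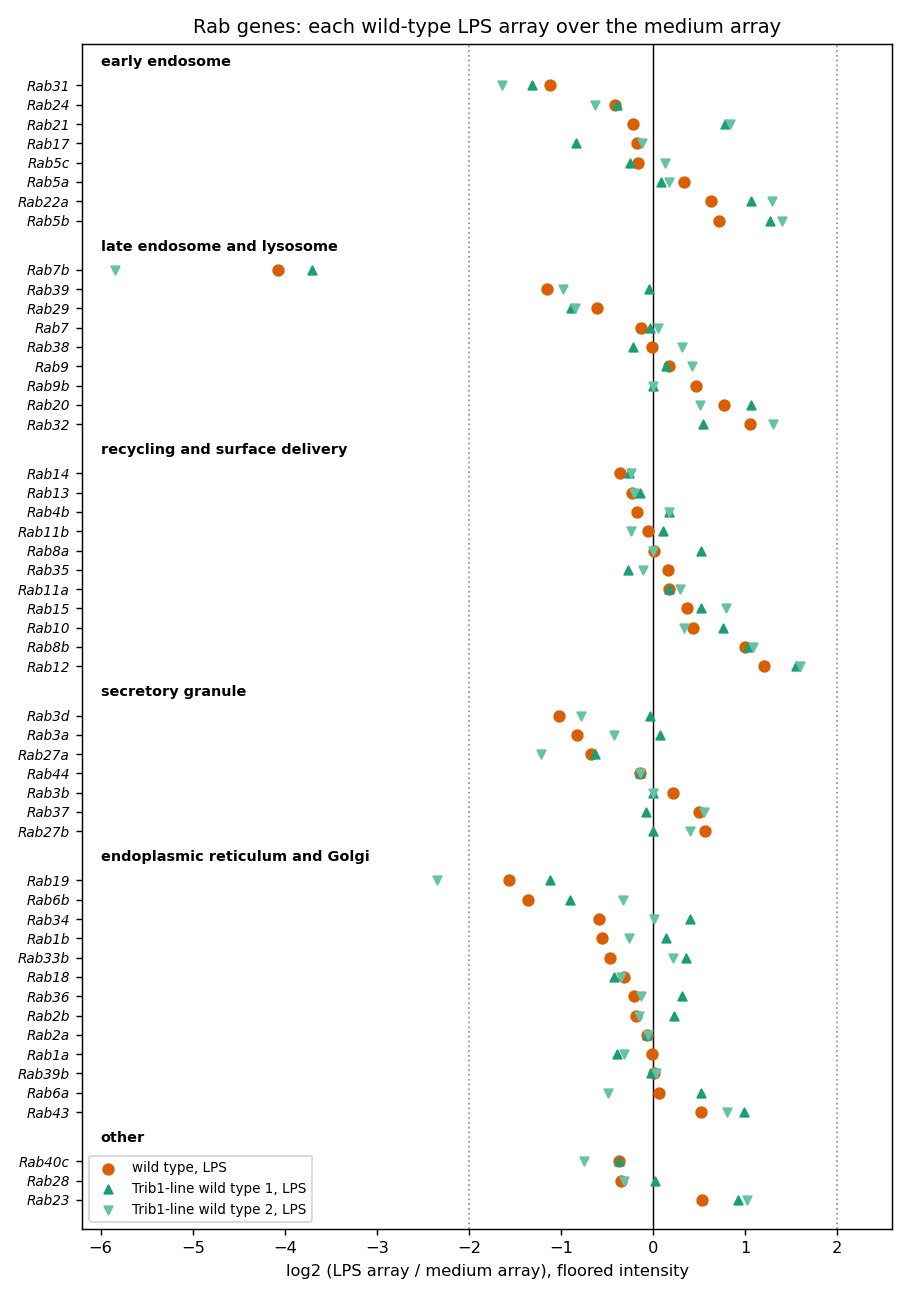
Log2 ratio of each wild-type LPS array over the medium array (horizontal axis) for the 51 Rab genes above the floor on the medium or LPS array, grouped by the membrane each protein serves; dotted lines mark 4-fold. Rab7b lies beyond 4-fold lower on all 3 arrays, and most members lie close to 0.

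The count over all 3 wild-type LPS arrays, 2 higher and 3 lower of 54 Rab genes above the floor on 1 or more of the 4 wild-type arrays, stood beside 1.97% higher and 2.19% lower of all genes. Limma, which took the lone medium array to vary like the LPS arrays, called 0 of 50 tested Rab genes after Benjamini-Hochberg adjustment over 28430 probe sets, of which 0.158% were called higher and 0.0106% lower. At an unadjusted p under 0.05 there were 11 Rab genes, 7 higher and 4 lower, or 22% of those tested, against 8.16% of all probe sets. With 1 probe set per gene, as for the Rab genes, 557 of 13582 tested genes were higher and 723 lower.

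Among Rab genes of late endosomes, lysosomes and related organelles, Rab7b differed most from medium. Its protein works on late endosomes and the trans-Golgi network and is known for sending Toll-like receptor 4, the LPS receptor, to lysosomes. Rab7b stood at a scaled intensity of 1720 in medium and of 102.1 after LPS. Wild type 1 and 2 gave 131.5 and 25.4, knockout 1 and 2 gave 104.5 and 61.4. All 5 LPS-treated arrays, of both genotypes, lay far under medium. The ratio was 16.8-fold lower on the LPS array, 13.1-fold on wild type 1 and at least 57.5-fold on wild type 2, which was under the floor. For the 3 wild-type LPS arrays against medium the log2 difference was -4.54 (SE 0.82; limma, Benjamini-Hochberg adjusted p = 0.124).

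The other probe sets of Rab7b gave the same direction. On 1435830_a_at the intensity was 803.9 in medium, 41.6 after LPS, 45.9 and 52.5 for wild type 1 and 2, and 47.7 and 59.0 in the knockout-labelled pair. These LPS values lie close together, and Rab7b fell on this probe set (log2 -4.11, SE 0.48; limma, Benjamini-Hochberg adjusted p = 0.0409). It was the only 1 of 98 tested Rab probe sets to pass, and it did not belong to the 1 probe set per gene counted above. On 1444063_at the intensity was 101.2 in medium and under the floor on all 3 wild-type LPS arrays. Leaving out 1 LPS array kept the direction of the chosen probe set. Its log2 difference was -4.78 without the LPS array, -4.96 without wild type 1 and -3.89 without wild type 2. No medium array of the Trib1 line and no second medium array enters any of these values.

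Rab7, the close paralog of Rab7b that drives fusion of late endosomes with lysosomes, measured 9039 in medium and 8257 after LPS. On wild type 1 and 2 it measured 8835 and 9362. These arrays differed from medium by less than 1.10-fold, and the limma log2 difference was -0.04 (SE 0.29, adjusted p = 0.981). In RNA of a whole culture, fewer cells of a type and less RNA per cell cannot be told apart.

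Rab32, which serves lysosome-related organelles and the killing of intracellular bacteria, measured 2078 in medium and 4312 after LPS (2.08-fold higher). It measured 3033 and 5118 for wild type 1 and 2, so wild type 1 missed 2-fold. Its relative Rab38 measured 267.2 in medium and 264.7 after LPS, but its second probe set 233.7 and 109.3. Rab20, found on maturing phagosomes, measured 1082 and 1840 (1.70-fold higher), then 2262 and 1540 for wild type 1 and 2. Both Rab32 and Rab20 were above medium on all LPS arrays, with limma log2 differences of 0.97 (SE 0.35, adjusted p = 0.531) and 0.78 (SE 0.31, adjusted p = 0.584).

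Rab29, which recruits the kinase Lrrk2 to Golgi and lysosome membranes, measured 1046 in medium, 683.7 after LPS and 562.0 and 582.7 for wild type 1 and 2. It lay below medium on every LPS array, by 1.53- to 1.86-fold on the wild-type ones. Rab39, linked to phagosome acidification, measured 69.4 in medium and 31.3 after LPS (2.22-fold lower) but 67.5 on wild type 1, so its ratio rests on the LPS array and wild type 2 (35.4). Rab9, which returns receptors from late endosomes to the Golgi, differed from medium by at most 1.34-fold on the 3 arrays.

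Of the 8 early endosome Rab genes, Rab31 was the lowest relative to medium. Its protein moves cargo between the trans-Golgi network and endosomes. Rab31 measured 2013 in medium and 928.6 after LPS (2.17-fold lower), 811.2 and 645.5 for wild type 1 and 2, and 900.7 and 657.2 in the knockout-labelled pair. All 5 LPS arrays lay at least 2.17-fold under medium (limma log2 -1.36, SE 0.31, adjusted p = 0.226). Its second probe set, 1431691_a_at, was 2.23-fold lower on the LPS array (384.7 to 172.7) and less far below medium for wild type 1 and 2 (288.2 and 262.6).

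Both Rab22a and Rab5b, of the same group, lay above medium on all 3 arrays. Rab22a, a sorting and recycling factor, measured 518.5 in medium, 803.4 after LPS and 1085 and 1272 for wild type 1 and 2 (limma log2 1.00, SE 0.34, adjusted p = 0.488). Its other 3 probe sets, all dimmer, lay slightly below medium on the LPS array (log2 -0.10 to -0.31). Rab5b, a fusion factor of early endosomes, measured 117.4 in medium, 192.5 after LPS and 283.1 and 309.9 for wild type 1 and 2 (limma log2 1.13, SE 0.44, adjusted p = 0.566). The paralogs Rab5a (2527 and 3201) and Rab5c (1882 and 1675) stayed within 1.27-fold of medium on the LPS array.

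In the recycling and surface delivery group, Rab12 and Rab8b were the members above 2-fold. Rab12, which sends transferrin receptor from recycling endosomes to lysosomes, measured 626.8 in medium and 1445 after LPS (2.31-fold higher). It measured 1843 and 1899 for wild type 1 and 2 and 1472 and 1645 in the knockout-labelled pair. All 5 LPS arrays were more than 2-fold above medium (limma log2 for the 3 wild-type arrays 1.45, SE 0.29, adjusted p = 0.167).

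Rab8b, which carries vesicles to the plasma membrane, measured 4189 in medium and 8393 after LPS (2.00-fold higher). It measured 8575 and 8879 for wild type 1 and 2 and 8942 and 6730 in the knockout-labelled pair. The 3 wild-type LPS arrays lay close together at the 2-fold limit (limma log2 1.04, SE 0.28, adjusted p = 0.314). Under quantile normalization Rab8b missed that limit (log2 0.77). Its paralog Rab8a measured 1659 and 1666 in medium and after LPS, and 2386 and 1664 for wild type 1 and 2. A further fit set wild type 1 and 2 alone against medium, without the LPS array of the LPS pair. Its log2 differences were 1.58 for Rab12, 1.06 for Rab8b, -1.48 for Rab31 and -4.78 for Rab7b. Both LPS-treated arrays of this fit come from the Trib1 line, so LPS, line, sex and deposited scale cannot be told apart in it.

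Rab10, which serves recycling and surface delivery, gave unlike values on 2 probe sets of nearly the same mean level (2703 and 2514), and is named after its values were seen. The chosen, slightly brighter one measured 2004 in medium, 2712 after LPS and 3387 and 2538 for wild type 1 and 2 (limma log2 0.51, SE 0.29, adjusted p = 0.721). The other, 1422664_at, measured 1313 in medium, 2661 after LPS (2.03-fold higher) and 3000 and 2544 for wild type 1 and 2 (limma log2 1.05, SE 0.27, adjusted p = 0.288). Both of these probe sets were above medium on all 3 arrays. A further, dimmer probe set, 1429296_at, measured 1034 in medium, 1165 after LPS and 1211 and 975.1 for wild type 1 and 2. Its limma log2 difference was 0.10 (SE 0.28, adjusted p = 0.941), and it lay below medium on wild type 2. The choice of probe set decides whether Rab10 passes 2-fold on the LPS array. Rab11a, of the recycling endosome, was 1.13-fold higher on the LPS array (4245 to 4793). Rab14, which works between the Golgi and endosomes, was 1.28-fold lower (3081 to 2409). Of the 13 genes of this group, 11 were above the floor in medium or after LPS. Their log2 ratios lay between -0.36 and 1.20, with 2 above and 0 below 2-fold.

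The 250 bases before the annotated start are shown for Rab8b and Rab31, a gene above and a gene below medium on all 3 arrays whose windows lie wholly outside the annotated gene. They are RefSeq sequence of build GRCm38.p6, 5′ to 3′ on the gene's strand, and capitals mark CpG dinucleotides. Rab8b lies at chr9:66919706-66919955 on the minus strand and Rab31 at chr17:65772753-65773002 on the minus strand.
Rab8b: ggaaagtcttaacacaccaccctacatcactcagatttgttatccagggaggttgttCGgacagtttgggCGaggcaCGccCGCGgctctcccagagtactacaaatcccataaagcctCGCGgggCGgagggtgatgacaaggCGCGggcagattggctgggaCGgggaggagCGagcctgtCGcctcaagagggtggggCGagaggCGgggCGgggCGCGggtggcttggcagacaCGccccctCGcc
Rab31: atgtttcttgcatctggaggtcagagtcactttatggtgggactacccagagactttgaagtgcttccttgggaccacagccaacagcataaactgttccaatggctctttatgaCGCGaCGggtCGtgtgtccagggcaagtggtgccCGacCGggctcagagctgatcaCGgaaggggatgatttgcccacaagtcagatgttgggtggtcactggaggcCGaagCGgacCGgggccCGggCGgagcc

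The Rab8b window held 20 CpG dinucleotides and 64.4% G or C, and the Rab31 window 12 and 57.6%. Windows were matched for 48 of the 59 Rab genes, 60 windows in all. A CpG ratio, observed over expected, of at least 0.6 was met by 61.7% of the Rab windows and 44.7% of those of protein-coding genes. The Rab8b window had 0.79 and the Rab31 window 0.59. On both strands the windows were searched for the kB consensus, the C/EBP letters TTGCNNAA, the AP-1 letters TGANTCA, the E-box CACGTG and the interferon-stimulated response element, which can overlap each other. Neither window shown holds any of these. Among the 60 Rab windows 5.0% held the kB consensus and 6.67% the C/EBP letters, against 7.91% and 9.09% of protein-coding windows. The AP-1, E-box and interferon letters were in 3.33%, 8.33% and 1.67% of the Rab windows and 6.14%, 6.63% and 2.96% of protein-coding ones. A match of letters is not a bound site.

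**Figure D2:**
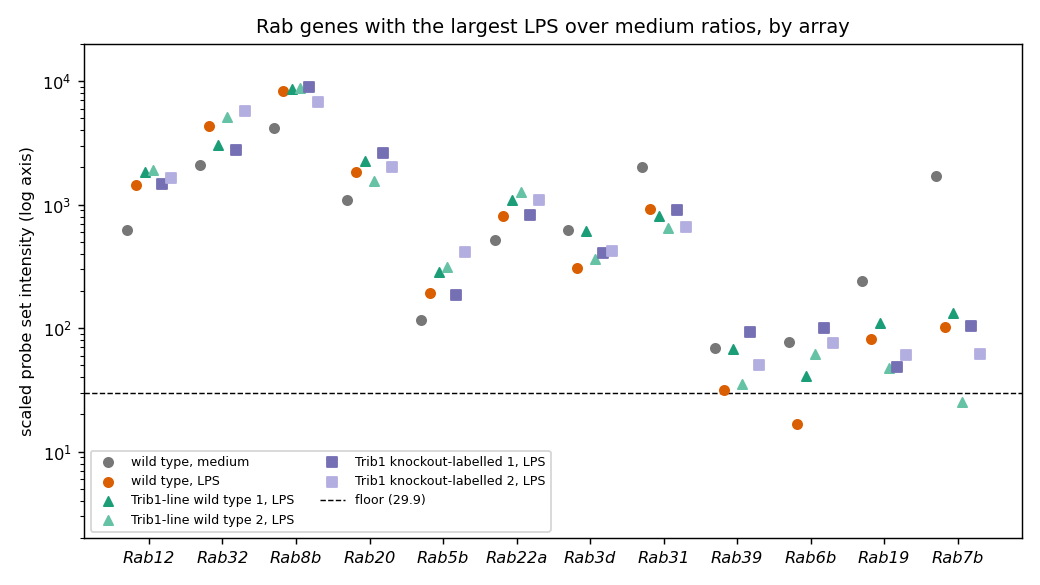
Scaled intensity on each of the 6 arrays (log axis) for the 6 highest and 6 lowest LPS over medium ratios among measured Rab genes; the dashed line is the floor of 29.9. Rab7b is at 1720 in medium and between 25.4 and 131.5 on the 5 LPS arrays, while Rab8b is at 4189 in medium and between 6730 and 8942.

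Among Rab genes of the endoplasmic reticulum and Golgi, 0 of 13 measured were 2-fold higher and 2 were 2-fold lower. Rab19 measured 240.1 in medium and 81.3 after LPS (2.95-fold lower), 110.8 and 47.2 for wild type 1 and 2, and 48.1 and 60.9 in the knockout-labelled pair. The 5 LPS arrays lay below medium without overlap, though they spread over more than 2-fold among themselves (limma log2 -1.68, SE 0.61, adjusted p = 0.530). Rab6b, a Golgi Rab best known from neurons, measured 76.8 in medium and lay under the floor after LPS, at least 2.57-fold lower, but 41.0 and 61.2 for wild type 1 and 2 and 99.5 and 76.4 in the knockout-labelled pair. Its knockout-labelled values reach the medium level, so low Rab6b was not shared by the LPS arrays. Its ubiquitous paralog Rab6a was 1.05-fold higher on the LPS array.

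Other genes of this group lay within 2-fold of medium on the LPS array. Rab1a, needed for transport from the endoplasmic reticulum to the Golgi, measured 11960 in medium and 11830 after LPS. Its paralog Rab1b measured 1464 in medium and 996.1 after LPS (1.47-fold lower), but 1607 and 1223 for wild type 1 and 2. Rab2a measured 2747 and 2623, and Rab18, found at lipid droplets and the endoplasmic reticulum, 3131 and 2517. Rab43, also of this group and known from antigen cross-presentation, measured 1815 in medium and 2599 after LPS, then 3591 and 3155 for wild type 1 and 2.

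Of 9 secretory granule Rab genes, 7 were above the floor in medium or after LPS and Rab3d was the 1 past 2-fold. Rab3d, a granule Rab of exocrine and myeloid cells, measured 623.1 in medium and 306.6 after LPS (2.03-fold lower). It measured 606.9 and 362.5 for wild type 1 and 2, so wild type 1 was level with medium on this probe set. On 1418891_a_at the log2 ratios were -0.96 on the LPS array and -1.03 and -1.50 on wild type 1 and 2. On 1449259_at Rab3d measured 178.7 in medium and 174.2 after LPS. On 1449260_at medium was under the floor, and the log2 ratio of 0.89 on the LPS array is a floored one. Rab3a, known from synaptic vesicles, was 1.78-fold lower (1438 to 808.0) with 1510 and 1073 for wild type 1 and 2. Its probe set, like those of Rab27b and Rab38, is of a kind that Affymetrix marks as open to cross-hybridisation. The other probe sets of Rab3a and Rab27b were under the floor on all arrays. Rab27b measured 98.3 in medium and 145.3 after LPS. Mast cell markers summed to 779.1 and 910.5 on these arrays (5 of 6 above the floor on each), and their part in these levels was not tested.

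Rab23, which restrains Hedgehog signalling, Rab28, Rab40b and Rab40c made up the rest, with 0 past 2-fold on the LPS array. In all, 4 Rab genes were under the floor on every array, namely Rab25, Rab26, Rab30 and Rab40b. Rab33a, Rab3c, Rab42 and Rab4a were under it on both arrays of the LPS pair, but not on every Trib1-line array. No ratio is read from these 8. For 24 Rab genes at least 2 probe sets were above the floor in medium and after LPS, and for 17 of these all of them had the same sign. The exceptions were Rab11b, Rab22a, Rab2a, Rab36, Rab40c, Rab6a and Rab7.

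The comparison of genotypes asks which genes differ with Trib1 after LPS. No Rab gene passed the test. With 1 probe set per gene, the 2 with the smallest p were Rab27a and Rab43, and neither held after adjustment. Rab27a, which docks secretory lysosomes and granules, was higher in the knockout-labelled pair, and Rab43 was lower there. Of the genes at least 2-fold from medium on all 3 arrays, Rab12, Rab8b, Rab31 and Rab7b differed between genotypes by at most 1.28-fold and Rab19 by 1.34-fold, with groups that overlapped for all but Rab12.

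Limma tested 50 Rab genes that were above the floor on 2 or more of the Trib1-line arrays, and after Benjamini-Hochberg adjustment over 29078 probe sets called 0 higher and 0 lower, as among all probe sets (0% called). At an unadjusted p under 0.05 there was 1 higher and 1 lower, or 4.0% of the Rab genes against 4.99% of all probe sets. Over every probe set of a Rab gene, 1 was higher and 3 were lower of 96 tested. The added ones were dimmer probe sets of Rab2b (1455857_a_at, log2 -1.07) and Rab5b (1437446_at, log2 -0.89). The chosen probe sets of these genes had -0.18 and -0.10. With 1 probe set per gene, 385 of 13897 tested genes were higher and 384 lower. The median log2 difference, knockout-labelled minus wild type, was 0.06 over the tested Rab genes and 0.01 over all tested genes, and its median size was 0.18 against 0.22. Both knockout-labelled arrays lay above both wild-type arrays for 9 Rab genes (18%; 16.9% of all tested genes) and below them for 6 (12%; 15.7%). With 2 arrays per genotype the smallest p of a two-sided exact permutation test is 0.333.

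Rab27a measured 44.7 and 17.6 in the wild-type pair and 62.4 and 77.3 in the knockout-labelled pair. The groups do not overlap, but the second wild-type value is under the floor and all are dim (log2 0.93, SE 0.36; limma, Benjamini-Hochberg adjusted p = 0.985). A second probe set of similar level, 1454438_at, measured 57.3 and 61.3 against 35.5 and 87.0, which overlap (log2 -0.09). Rab6b measured 41.0 and 61.2 against 99.5 and 76.4 (difference 0.80 on the log2 scale, SE 0.39, adjusted p = 0.999), again without overlap. The next were Rab39b (31.4 and 32.6 against 38.8 and 52.5), Rab17 (17.9 and 49.0 against 47.1 and 78.5, which overlap) and Rab4a (28.7 and 17.6 against 33.9 and 48.5). Both wild-type values of Rab4a are under the floor, so it entered the test only through the pair in which it is higher, and its p is no support for a difference. These are Rab genes of neurons, epithelia and fast recycling, all at dim probe sets close to the floor.

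Rab43 measured 3591 and 3155 in the wild-type pair and 2612 and 2434 in the knockout-labelled pair, 1.34-fold lower without overlap (log2 -0.42, SE 0.17; limma, adjusted p = 0.994). Its 2 other probe sets had log2 differences of -0.30 and -0.52. Rab23 measured 82.5 and 88.1 against 69.6 and a value under the floor (difference -0.90 on the log2 scale, SE 0.49, adjusted p = 0.999). Rab29 measured 562.0 and 582.7 against 318.8 and 528.4, so the difference rested mainly on knockout 1 (log2 -0.48, SE 0.29). Rab12 (log2 -0.27) and Rab9 (-0.29), both well above the floor, were the other genes among the smallest p, each with both knockout-labelled arrays below both wild-type arrays.

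The Rab genes that differed from medium after LPS gave these genotype differences. Rab7b had a log2 difference of 0.35 (SE 0.75), with groups that overlap on either bright probe set. Rab31 had 0.09 (SE 0.24), Rab8b -0.17 (SE 0.20) and Rab32 0.01 (SE 0.41). Rab7 (log2 0.09, SE 0.16), Rab1a (-0.02, SE 0.16) and Rab2a (0.06, SE 0.16) had smaller standard errors than Rab7b, and all 4 lay within 1 SE of 0. A p above the threshold does not show that the genotypes had equal levels.

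**Figure D3:**
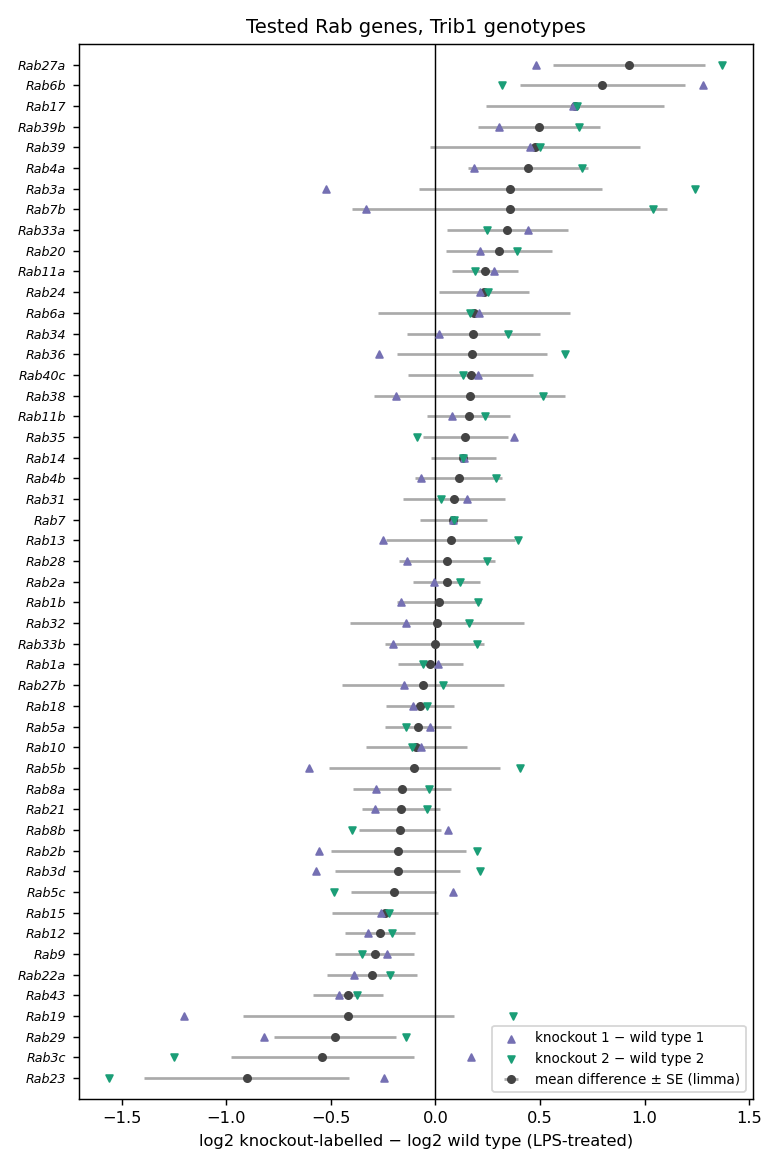
Log2 difference of knockout-labelled minus wild-type LPS-treated arrays for the 50 tested Rab genes, with the limma mean and SE and, as triangles, the differences between arrays of the same number. The smallest limma adjusted p is 0.9847, and the extremes are Rab27a (0.93) and Rab23 (-0.90).

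Markers of other cells also differed between these 4 arrays. The 6 mast cell markers summed to 573.9 and 800.1 in the wild-type pair and 199.2 and 252.9 on the knockout-labelled ones. The 6 mesothelial or stromal markers summed to 602.6 and 589.0 against 842.8 and 2201, and 5 B cell markers to 496.3 and 604.0 against 298.0 and 401.1. On the medium and LPS arrays the B cell sums were 1291 and 2325 and the mesothelial or stromal sums 387.4 and 250.8. Neutrophil markers summed to 330.9 and 347.5 in the wild-type pair and 656.8 and 310.6 on the knockout-labelled ones. In medium and after LPS they summed to 241.5 and 284.2. T and NK cell markers summed to 129.5 to 229.5 over the 6 arrays. The part of these cells in any Rab difference was not tested. Rab27b, of secretory granules, measured 98.0 and 129.5 in the wild-type pair and 88.2 and 132.8 on the knockout-labelled ones, and these values overlap.

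Genes whose products load, unload, anchor or read Rab proteins were followed as 4 lists, with 131 genes on the array and 122 above the floor in medium or after LPS. At 4-fold, 1 was higher and 2 were lower after LPS, and at 2-fold 5 and 11, against 1.21%, 0.672%, 5.44% and 6.72% of all genes. Their median log2 ratio was -0.16 over all 131, floored genes included. All 7 prenylation and GDI genes lay below medium on the LPS array, by at most 0.58 on the log2 scale, as did 58% of all measured genes. They were also below medium on both Trib1-line wild-type arrays. In limma of medium against the 3 wild-type LPS arrays 0 of 121 were called, with 7 higher and 16 lower at an unadjusted p under 0.05, where 8.16% of all probe sets were found.

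The gene past 4-fold higher was Rab11fip1, an effector that binds Rab11 on recycling endosomes. It measured 78.5 in medium, 349.2 after LPS (4.45-fold higher) and 236.5 and 290.2 for wild type 1 and 2, and all 3 lay well above medium (limma log2 1.88, SE 0.41, adjusted p = 0.199). Both genes past 4-fold lower are GTPase-activating proteins. Tbc1d2, which acts on Rab7, measured 284.1 in medium, 55.8 after LPS, 94.2 on wild type 1 and under the floor on wild type 2. Tbc1d22a measured 1072 in medium, 259.7 after LPS and 255.5 and 350.6 for wild type 1 and 2 (limma log2 -1.91, SE 0.35, adjusted p = 0.124).

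Among partners chosen for mention after their values were seen, Plekhm1, a Rab7 effector that tethers lysosomes, measured 1650 in medium, 579.1 after LPS and 448.1 and 438.8 for wild type 1 and 2 (limma log2 -1.77, SE 0.31, adjusted p = 0.118). Rabgef1, which loads GTP onto Rab5, measured 339.7 in medium, 711.4 after LPS and 775.4 and 1088 for wild type 1 and 2 (log2 1.31, SE 0.34, adjusted p = 0.301). Each lay at least 2-fold on the same side of medium on all 3 wild-type LPS arrays. Of 125 partners above the floor on 1 or more wild-type arrays, 3 did so above medium (2.4%; 1.97% of all genes) and 7 below (5.6%; 2.19%).

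**Figure D4:**
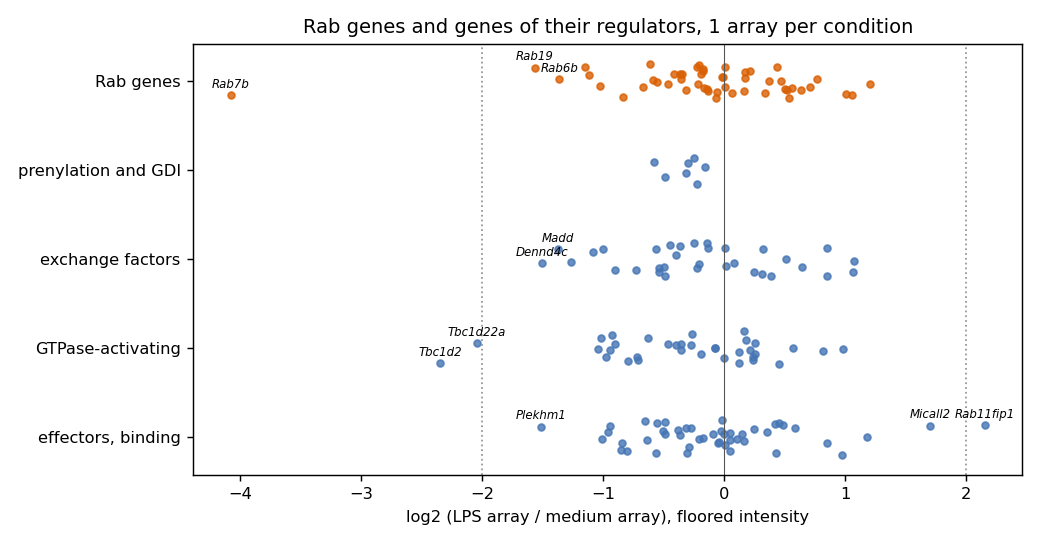
Log2 ratio of the LPS array over the medium array for measured Rab genes and the 4 lists of their partners, 1 point per gene, with vertical scatter for display only; dotted lines mark 4-fold. Rab7b is at -4.07, Tbc1d2 at -2.35, Tbc1d22a at -2.04 and Rab11fip1 at 2.15.

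Between genotypes 0 of 121 tested partners were called, with 2 higher and 5 lower at an unadjusted p under 0.05, beside 4.99% of all probe sets. Tbc1d2 measured 94.2 and a value under the floor in the wild-type pair and 240.5 and 146.3 in the knockout-labelled pair (log2 1.82, SE 0.63; limma, adjusted p = 0.955). The knockout-labelled values lie above both wild-type values and below the medium level of 284.1. Rab11fip4 had a log2 difference of 1.07 (SE 0.60). Rin2, an exchange factor for Rab5, measured 765.1 and 1209 against 226.2 and 676.4 (log2 difference -1.30, SE 0.54, with adjusted p = 0.999). Tbc1d1, a GTPase-activating protein known from glucose transporter traffic, measured 463.7 and 768.7 against 245.7 and 304.4 (log2 difference -1.13, SE 0.31, with adjusted p = 0.909).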

How the data were processed

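For 6 arrays the authors deposited linear intensity values per probe set, made with MAS5 per the submitters' processing notes, with version and scaling target not given in the sources used here. Arrays were rescaled to 1 trimmed mean (2%) of 234, since the deposited arrays were scaled to 500 (medium, LPS) or 95.5 to 107 (Trib1 line). The floor of 29.9 is the pooled 40th percentile. The 64 control probe sets were left out of 45101. A gene was named from the platform annotation where a probe set lists 1 gene.

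Differences were tested with limma 3.58.1 in R 4.3.3 (lmFit, eBayes with a trend, two-sided, Benjamini-Hochberg over all probe sets tested, threshold 0.05), on log2 values of probe sets that exceeded the floor on 2 or more of the 4 arrays compared. The genotype design was tested on simulated data, where the share of false calls was above the threshold. Members, gene lists and role groups were chosen with earlier results of these data known. Named were all Rab genes past 4-fold or called, the 6 highest and 6 lowest LPS ratios, those 2-fold on 1 side on all 3 arrays, the 5 smallest p per direction between genotypes and their same-number paralogs; of the partners, those past 4-fold, else the 2 highest and 2 lowest. Other Rab genes named in the text, such as Rab1a, Rab2a, Rab11a and Rab14, fall outside this rule. Figures used Python 3.11.15 and matplotlib 3.10.9. The number of arrays limits all precision.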

Additional observations from a re-analysis of the deposited data

How the results depend on the processing

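The count of Rab genes past 4-fold after LPS was 1. It was 3 with the values as deposited (1 higher, 2 lower), 2 with the floor at the 25th percentile and 2 over every probe set (both of Rab7b). It was 2 with wild type 2 in place of the LPS array, and 9 at 2-fold. The added lower gene was Rab6b as deposited and with the 25th percentile floor (log2 -2.20 in both). With wild type 2 it was Rab19 (log2 -2.35). Rab7b kept its direction in all of these settings. The cause of the changed counts was not tested. In limma of medium against 3 LPS arrays, 0 became 1 over every probe set. Leaving out 1 LPS array raised the calls among Rab genes and over all probe sets alike, with the same lone medium array. The count on all 3 arrays (2 higher, 3 lower; its alternatives were chosen after seeing the data) was 1 and 3 under quantile normalization or with 16 added and no floor, and 5 to 7 in all when 1 array was left out. As deposited it was 0 and 7, but the arrays were then on different scales. Between genotypes the Rab count was 0 under all 15 alternatives, among them the number of the labels as a replicate block (0, with 85 higher and 31 lower among all probe sets). Arrays of the same number deviated together (r = 0.35 across 29078 probe sets), but the labels do not say that numbers pair them. All 122 alternative values for the named Rab genes between genotypes kept their sign. These genes were named for small p on these same arrays, and some settings leave the log2 difference itself unchanged. The kept signs are therefore no support for a difference. Dim probe sets near the floor limit Rab27a, Rab6b, Rab39, Rab39b, Rab17, Rab4a and Rab23.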

Other observations

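Rab21 and Rab3a were chosen for mention after their values were seen. Rab21, of early endosomes and phagocytosis, measured 837.8 in medium and 719.7 after LPS, but 1444 and 1499 for wild type 1 and 2, and 1182 to 1459 in the knockout-labelled pair, so the LPS pair and the Trib1 line did not overlap. Rab3a measured 2536 on knockout 2 and 808.0 to 1510 on the other 5 arrays. The LPS pair and the Trib1 line differ in line, sex and deposited scale, which cannot be told apart.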
